A study of Mus musculus with 9 samples.

Results

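The transcription factor genes Grhl1, Grhl3, Klf4, Klf5, Ovol1, Gata3, Zfp750, Prdm1 and Hopx act in the epidermis, most of them in its outer living layers. They were followed in newborn mouse trunk epidermis with and without Alox12b, the 12R-lipoxygenase that prepares ceramides for the lipid envelope of cornified cells. Members were all probe sets that the platform annotation gives to one of these 9 genes as the only symbol, which were 14 of 45037 probe sets. Klf5 had 3, Klf4, Ovol1 and Hopx had 2 each, and the other genes had 1. The series holds 4 arrays labelled Alox12b-KO and 5 labelled wildtype, each from 1 sample that the labels call a biological replicate. All came from animals killed right after birth, and the knockout animals were offspring of heterozygous parents. The labels name the strain 129S6 for the wildtype samples, and do not say which strain carried the knockout or which part of the gene was removed. Values are the authors' log2 expression values, so a difference of 1 is a factor of 2.

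Keratinocytes stop dividing as they leave the basal layer, pass through spinous and granular layers, and die as flat cornified cells joined by cross-linked protein and lipid. Granular cells make the proteins, lipids and proteases of that barrier, and a small set of transcription factors switches those genes on. In mice, loss of Klf4 or of Grhl3 leaves newborns with a leaking skin barrier, which is also what loss of Alox12b does. The comparison thus asks whether the factors that build the granular layer have other transcript levels when one late step of barrier lipid synthesis is missing.

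No member gene passed an adjusted p of 0.05 in limma. The count was 0 of 14 probe sets, where 1.11% of all probe sets passed, and 0 of 9 genes, where 1.24% of 18193 genes passed when the probe set with the highest mean stood for each gene. Of the 498 probe sets that passed 153 were higher and 345 lower, a split that quantile normalization moved to 276 and 393. At an unadjusted p under 0.05 the count was 7 of 14 probe sets, where 16.3% of all probe sets stood. Of these 5 were higher in knockout, beside 6.98% of all probe sets, and 2 lower, beside 9.28%. It was 3 of 9 genes, where 17.8% of all genes stood, with 2 higher, beside 7.08%, and 1 lower, beside 10.7%. All 9 genes had a mean over the arrays of at least 5. When only the 7184 genes at that level were fitted, 1787 of them had an unadjusted p under 0.05, a larger share than over all genes. Probe sets of 1 gene are not independent. The genes with the widest differences were Prdm1 and Hopx on the higher side and Gata3 on the lower side. The median difference of the 9 genes was 0.30, beside 0.02 over all genes, and it was 0.16 without wildtype array 5.

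Several facts about the arrays bear on every value below. Wildtype array 5 stood apart for these genes: among the wildtype arrays it had the lowest value for 7 of the 14 probe sets and the highest for 5. Over 7184 genes with a mean of at least 5, the SD of its deviations from the wildtype median was 0.55, against 0.15 to 0.29 on the other wildtype arrays. Each member difference is therefore also given without that array. On knockout arrays 1 to 4 the SD of deviations from the knockout median was 0.27, 0.23, 0.43 and 0.39, so knockout arrays 3 and 4 also deviated widely. Xist, the RNA of the inactive X chromosome, read 9.99 to 10.20 in knockout. Wildtype array 4 also had high Xist, at 10.95, while wildtype arrays 1, 2, 3 and 5 had 3.23 to 4.32, so sex and genotype nearly coincide and their parts cannot be told apart for most arrays. Alox12b read 10.84 to 11.60 on the knockout arrays and 10.56 to 11.32 on the wildtype arrays, which checks nothing about the labels because the place of the probes relative to the deletion is not known here. Defining markers of suprabasal epidermis were bright in both groups, with group means of 14.06 and 14.02 for Krt1 and 14.36 and 14.33 for Lor in knockout and wildtype.

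**Figure D1:**
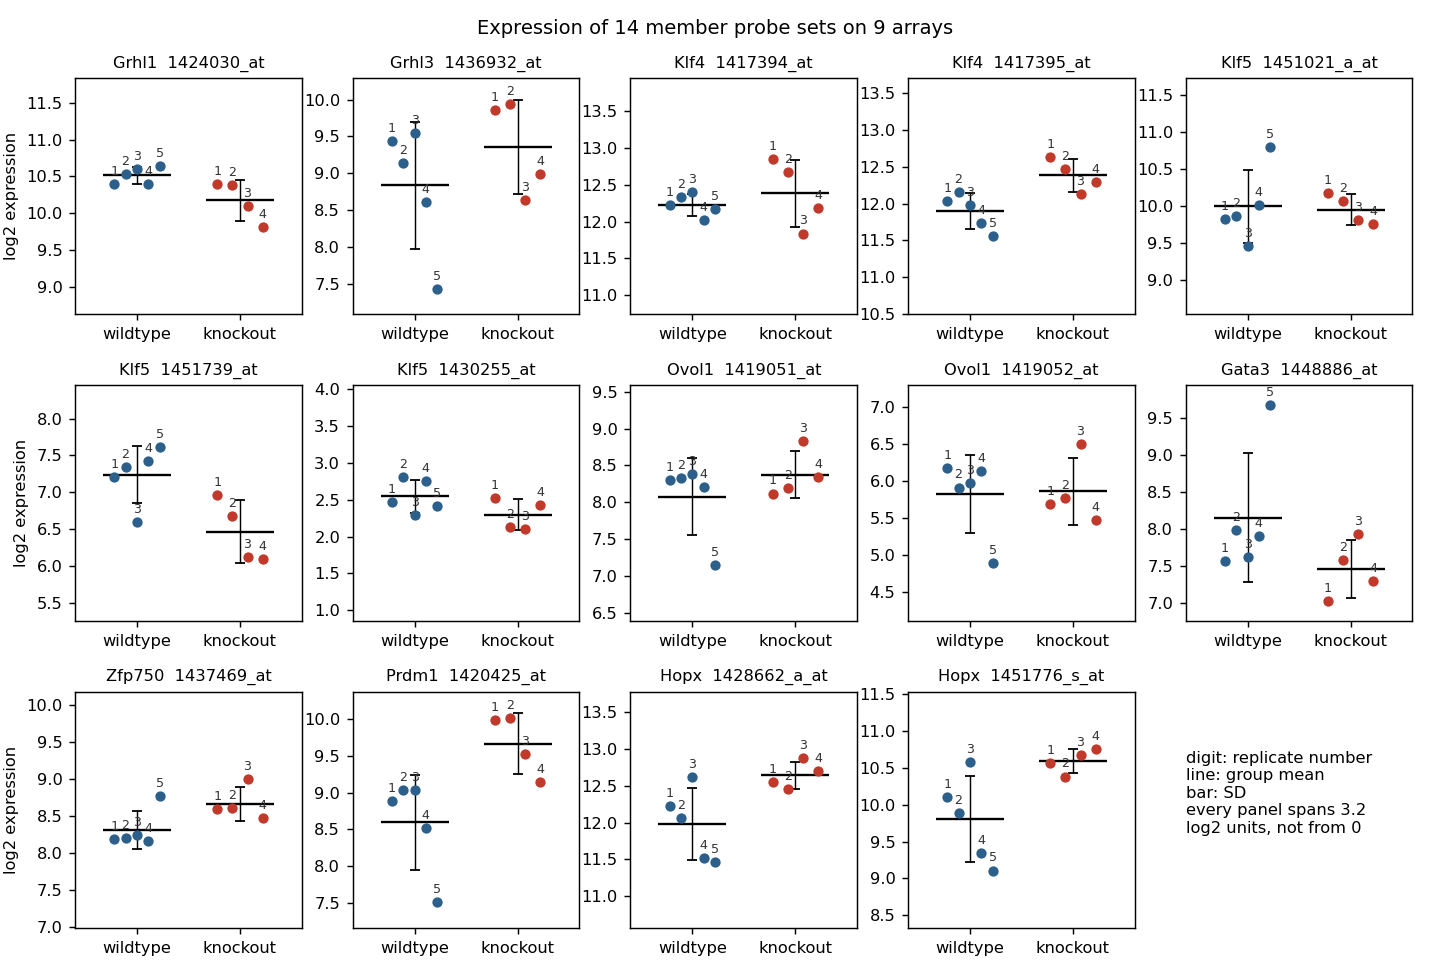
Log2 expression of the 14 member probe sets (y axis, each panel spanning 3.2 log2 units and not starting at 0) on the wildtype and knockout arrays (x axis). Points are arrays labelled by replicate number, horizontal lines are group means and bars are SD, and only Prdm1 has groups that do not overlap, with 9.14 to 10.02 in knockout and 7.51 to 9.04 in wildtype.

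The Grainyhead-like factors Grhl1 and Grhl3 bind related DNA sequences and drive genes of cell junctions and cornification, among them, in mice, a desmoglein gene for Grhl1 and transglutaminase 1 for Grhl3. Grhl1 (1424030_at) read 10.40, 10.38, 10.10 and 9.81 on knockout arrays 1 to 4 and 10.40, 10.54, 10.60, 10.40 and 10.65 on wildtype arrays 1 to 5. Knockout arrays 3 and 4 were the lowest of all, while arrays 1 and 2 lay at the lower edge of the wildtype range, where the groups touch. The difference was -0.34 ± 0.14 (SE, 4 and 5 arrays), with a limma adjusted p of 0.262. It was -0.31 without wildtype array 5 and -0.22 without knockout array 4, the array on which Grhl1 was lowest.

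Grhl3 (1436932_at) read 9.86, 9.94, 8.64 and 8.98 in knockout and 9.44, 9.14, 9.55, 8.61 and 7.43 in wildtype. The spread within each group was wider than the distance between their means, and wildtype array 5 was more than 1 log2 unit below every other array. The difference was 0.52 ± 0.43 (SE, 4 and 5 arrays), with an interval of -0.42 to 1.46 and a limma adjusted p of 0.561. It was 0.17 without wildtype array 5 and 0.33 without knockout array 2.

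Klf4 and Klf5 are Krüppel-like zinc finger factors with opposite places in the epidermis, Klf4 in differentiating suprabasal cells and Klf5 mainly in proliferating basal cells. Both Klf4 probe sets were among the brightest on the arrays, but they gave different sizes. The first (1417394_at) read 12.85, 12.67, 11.84 and 12.18 in knockout and 12.22, 12.34, 12.40, 12.02 and 12.16 in wildtype, so knockout arrays lay both above and below the whole wildtype group. Its difference was 0.15 ± 0.19 (SE, 4 and 5 arrays), with a limma adjusted p of 0.723, and it was 0.13 without wildtype array 5 and -0.00296 without knockout array 1. The second (1417395_at) read 12.64, 12.47, 12.13 and 12.29 in knockout and 12.04, 12.16, 11.98, 11.74 and 11.56 in wildtype. There only knockout array 3 fell within the wildtype range. The difference was 0.49 ± 0.15 (SE, 4 and 5 arrays), with an unadjusted p of 0.00858 and a limma adjusted p of 0.164, and it was 0.40 without wildtype array 5.

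The 3 Klf5 probe sets also differed in size. The brightest (1451021_a_at) read 10.18, 10.07, 9.81 and 9.75 in knockout and 9.82, 9.87, 9.45, 10.02 and 10.80 in wildtype. Its group means were equal to within 0.04, the difference being -0.04 ± 0.23 (SE, 4 and 5 arrays) with an interval of -0.55 to 0.47 and a limma adjusted p of 0.944, and it turned to 0.16 without wildtype array 5. The middle one (1451739_at) read 6.96, 6.68, 6.13 and 6.09 in knockout and 7.21, 7.34, 6.60, 7.42 and 7.61 in wildtype. All wildtype arrays but number 3 lay above all knockout arrays. The difference was -0.77 ± 0.23 (SE, 4 and 5 arrays), with an unadjusted p of 0.00690 and a limma adjusted p of 0.150, and it was -0.68 without wildtype array 5. The dimmest (1430255_at) read 2.10 to 2.53 in knockout and 2.29 to 2.81 in wildtype, levels that may not lie above background. Its difference was -0.25 ± 0.15 (SE, 4 and 5 arrays), with a limma adjusted p of 0.424, and -0.28 without wildtype array 5. With all arrays the 3 differences thus had the same sign and unequal sizes. Which transcript forms each probe set reads was not analysed here.

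Ovol1, a zinc finger repressor that in mice restrains the proliferation of cells entering differentiation, had 2 probe sets. The brighter (1419051_at) read 8.12, 8.20, 8.83 and 8.34 in knockout and 8.30, 8.33, 8.38, 8.21 and 7.15 in wildtype. All arrays but knockout array 3 and wildtype array 5 lay between 8.12 and 8.38. The difference was 0.30 ± 0.25 (SE, 4 and 5 arrays), with a limma adjusted p of 0.579. It was 0.07 without wildtype array 5 and 0.15 without knockout array 3. The dimmer (1419052_at) read 5.48 to 6.51 in knockout and 4.89 to 6.18 in wildtype, with a difference of 0.04 that turned to -0.19 without wildtype array 5.

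Gata3, a zinc finger factor needed in mice for barrier lipids and for the inner root sheath of the hair follicle, read 7.02, 7.58, 7.93 and 7.30 in knockout on its probe set (1448886_at). In wildtype it read 7.57, 7.99, 7.62, 7.91 and 9.68. Only wildtype array 5 lay far from the rest, and the other 8 arrays overlapped. The difference was -0.70 ± 0.39 (SE, 4 and 5 arrays), with an interval of -1.56 to 0.16 and a limma adjusted p of 0.399, and without wildtype array 5 it was -0.31. Cells other than granular keratinocytes make Gata3, and in bulk tissue fewer cells of a type and less RNA per cell cannot be told apart. Inner root sheath markers had a mean of 5.10 to 6.30 on the knockout arrays and 5.79 to 6.83 on the wildtype arrays, with 6.11 on wildtype array 5. Of these 0 of 8 passed in limma, while 3 were lower at an unadjusted p under 0.05, beside 10.7% of all genes. T cell markers had a mean of 3.38 to 3.62 and 3.11 to 3.72, with 3.11 on wildtype array 5, and 0 of 5 passed. As 0 of these 5 had a mean of at least 5, that list may not lie above background. The part of inner root sheath or T cells in the Gata3 values was not tested.

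Zfp750, whose human counterpart acts below p63 to turn on differentiation genes, read 8.59, 8.60, 9.003 and 8.48 in knockout (1437469_at). Wildtype arrays 1 to 4 read 8.19, 8.20, 8.25 and 8.16, all below every knockout array, and wildtype array 5 read 8.78. The difference was 0.35 ± 0.16 (SE, 4 and 5 arrays), 1.28-fold, with a limma adjusted p of 0.301. It was 0.47 without wildtype array 5, with a limma adjusted p of 0.126.

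Prdm1 encodes the repressor Blimp1, which in mice marks the granular layer and is needed for the last steps of cornification. It had the widest difference of the members, with 9.98, 10.02, 9.52 and 9.14 in knockout and 8.89, 9.04, 9.04, 8.52 and 7.51 in wildtype (1420425_at). The groups did not overlap, which held for 1 of 14 member probe sets and for 7.18% of all probe sets, or 2.82% with knockout on the higher side. Knockout array 4 lay just above wildtype arrays 2 and 3, and wildtype array 5 was far below the rest. The group means were 9.67 ± 0.42 (SD, n = 4) and 8.60 ± 0.64 (SD, n = 5), a 2.09-fold difference of 1.07 ± 0.31 (SE) with an interval of 0.38 to 1.75. The unadjusted p was 0.00566 and the limma adjusted p 0.138. Without wildtype array 5 the difference was 0.79, with a limma adjusted p of 0.102. Sebocytes also make Prdm1, and their markers had list means of 4.00 to 4.24 in knockout and 4.37 to 5.11 in wildtype, where 1 of 6, Far2, fell by 1.81 in limma, beside 0.731% of all genes that fell. Far2 passed in 11 of 19 alternative settings and in 4 of the 9 with 1 array left out. The other 5 sebocyte markers did not pass, with -1.14 for Scd1, -0.65 for Pparg, -0.06 for Plin5, -0.03 for Mc5r and 0.04 for Elovl3. The gap between the list means thus came mainly from Far2, Scd1 and Pparg, and only 2 of the 6 markers had a mean of at least 5. Adipocyte markers had list means of 4.15 to 5.01 in knockout and 4.02 to 8.17 in wildtype, and 0 of 6 passed. The part of sebocytes or adipocytes in the Prdm1 values was not tested.

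Hopx, a small homeodomain protein that does not bind DNA itself, is known from differentiated keratinocytes and from hair follicle stem cells. Its brighter probe set (1428662_a_at) read 12.55, 12.45, 12.88 and 12.69 in knockout and 12.23, 12.06, 12.62, 11.52 and 11.47 in wildtype. Wildtype array 3 alone reached into the knockout range. The difference was 0.66 ± 0.22 (SE, 4 and 5 arrays), 1.58-fold, with an unadjusted p of 0.0132 and a limma adjusted p of 0.194. The dimmer probe set (1451776_s_at), of a kind that can read related transcripts, read 10.38 to 10.75 in knockout and 9.11 to 10.57 in wildtype, and gave 0.79 ± 0.26 (SE, 4 and 5 arrays) with a limma adjusted p of 0.184. Hopx was thus the only gene here whose probe sets both had an unadjusted p under 0.05. Without wildtype array 5 they gave 0.54 and 0.61. Wildtype array 4, the wildtype array with high Xist, was low for Hopx, and against that array alone the 4 knockout arrays differed by 1.12, with a limma adjusted p of 0.449 when the lone array is assumed to vary like the knockout arrays. Bulge and germ markers of the hair follicle had means of 4.76 to 5.24 in knockout and 4.60 to 5.03 in wildtype, and 0 of 9 passed. Only 3 of the 9 had a mean of at least 5, so the others may not lie above background.

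**Figure D2:**
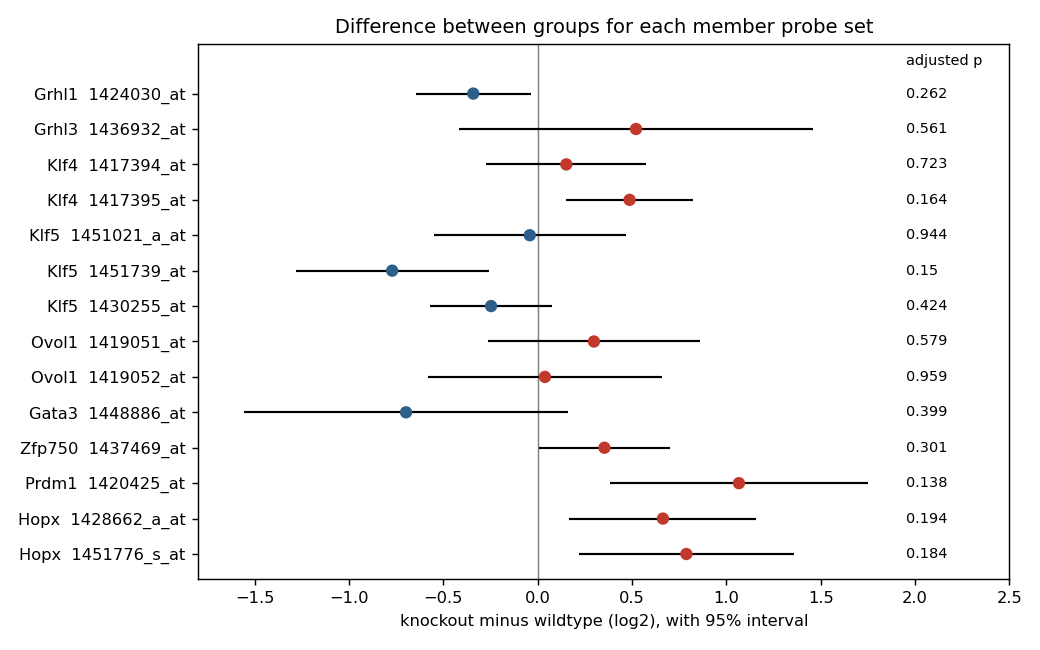
Knockout minus wildtype difference on the log2 scale (x axis) for each member probe set (y axis), with points for the limma estimate, bars for its 95% interval and the adjusted p over 45037 probe sets at the right. Prdm1 at 1.07 and probe set 1451739_at of Klf5 at -0.77 are the ends of the range, and every adjusted p is at least 0.138.

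How the members varied from array to array depended on wildtype array 5. With group means removed, Pearson's r over 9 arrays was 0.93 between Grhl3 and Prdm1, the highest of 36 pairs, and -0.90 between Klf5 and Ovol1, the lowest. Without wildtype array 5 these were 0.83 and -0.59. The highest pair was then Grhl1 with Prdm1, at 0.94, which had been 0.28 with all arrays. The 6 pairs among Grhl1, Grhl3, Klf4 and Prdm1 ran from 0.24 to 0.93 with all arrays and from 0.72 to 0.94 without wildtype array 5. These genes were not set apart beforehand, so their high r partly reflects the choice. Each of them read higher on knockout arrays 1 and 2 than on knockout arrays 3 and 4. When wildtype array 5 was left out, Klf5 and Gata3 went from 0.77 to -0.06, and Ovol1 and Zfp750 from -0.44 to 0.86. Klf5 and Hopx kept an r of -0.84. On the values as deposited, with the group difference left in, r and Spearman's rho were 0.85 and 0.68 for Grhl3 with Prdm1 and -0.37 and -0.52 for Grhl1 with Prdm1. The arrays share their processing, so these values describe the 9 samples.

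Promoter sequences are shown for Prdm1, the member with the widest difference, and for Grhl3 and Klf4, whose loss alone opens the skin barrier in mice. These 3 were picked after the values were seen, and the windows of Grhl1, Gata3 and Hopx were searched in the same way. Each is the 250 bases before the RefSeq gene start in GRCm38.p6, 5′ to 3′ on the gene's strand, which is the minus strand for all 3. The windows are chr10:44458749-44458998 for Prdm1, chr4:135573633-135573882 for Grhl3 and chr4:55532476-55532725 for Klf4. Capitals mark matches on either strand to the AP-1 letters TGANTCA, the CRE letters TGACGTCA, the Grainyhead letters AACNGGTT, the Krüppel-like letters CACCC, the GC box letters GGGCGG, the GATA letters AGATAA and the TATA letters TATAAA.
Prdm1: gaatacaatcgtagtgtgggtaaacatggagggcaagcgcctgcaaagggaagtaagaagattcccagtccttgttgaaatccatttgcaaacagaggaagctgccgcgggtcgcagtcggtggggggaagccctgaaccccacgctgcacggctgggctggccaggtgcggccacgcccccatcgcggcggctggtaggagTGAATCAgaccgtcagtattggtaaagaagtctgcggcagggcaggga
Grhl3: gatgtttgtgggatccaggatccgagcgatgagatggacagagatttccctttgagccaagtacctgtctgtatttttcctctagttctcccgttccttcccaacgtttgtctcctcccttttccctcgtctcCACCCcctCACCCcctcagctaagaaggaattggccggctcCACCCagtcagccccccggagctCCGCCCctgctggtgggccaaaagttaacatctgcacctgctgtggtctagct
Klf4: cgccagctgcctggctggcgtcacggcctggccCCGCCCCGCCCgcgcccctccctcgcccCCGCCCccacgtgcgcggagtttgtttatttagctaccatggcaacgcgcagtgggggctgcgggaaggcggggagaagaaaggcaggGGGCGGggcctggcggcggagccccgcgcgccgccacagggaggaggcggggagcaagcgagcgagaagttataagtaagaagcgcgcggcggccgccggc
Prdm1 holds 1 AP-1 match, TGAATCA, 48 to 42 bases before the start, letters found in 6.75% of 32851 windows of the same length. Grhl3 holds 3 matches to CACCC and 1 GC box, and Klf4 holds 4 GC boxes, of which 2 share a base. CACCC was in 52% and the GC box in 32.7% of all windows, so those matches are common. None of the 8 windows of the 6 members in the table holds the CRE, Grainyhead, GATA or TATA letters, which were in 1.55%, 1.79%, 9.99% and 12.4% of all windows. GC content was 74% for Klf4, 59.2% for Prdm1 and 56% for Grhl3, beside a median of 52.4%. A match is a run of letters only, and no binding was measured.

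The immediate early genes, which encode AP-1 subunits and other factors that growth factors or stress induce within minutes, differed far more than the members. Of 20 measured, 15 rose and 0 fell over all genes tested, where 0.511% of genes rose, and their median difference was 2.04. They were Nr4a1, Fosb, Arc, Atf3, Egr1, Junb, Csrnp1, Zfp36, Ier3, Btg2, Dusp1, Maff, Fos, Jun and Ier2, with differences from 1.24 for Ier2 to 3.09 for Nr4a1. Their mean was 8.63 to 9.01 on the knockout arrays and 6.75 to 7.40 on the wildtype arrays, with the lowest value on wildtype array 5. That array was also the lowest of all for 7 of the 14 member probe sets, and the highest of all for 4. Fos passed in 2, Maff in 4 and Atf3 in 7 of the 9 fits with 1 array left out, and the others of the 15 in all 9. With the Xist level as a covariate 6 of the 20 passed. Their part in the member values was not tested.

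Other genes of the members' families did not pass either. Of 32 measured Grhl, Klf, Ovol, Gata and Prdm genes 0 passed in limma, and the median was 0.14. At an unadjusted p under 0.05, 2 were higher, beside 7.08% of all genes, and 1 lower, beside 10.7%. The widest differences were in Klf6, an injury-induced Krüppel-like factor, and in Klf10, a factor induced by TGF-beta. Klf6 read 9.65, 9.62, 8.01 and 9.09 in knockout and 7.79 to 8.36 in wildtype, so knockout array 3 alone lay in the wildtype range. Its difference was 1.07 ± 0.30 (SE, 4 and 5 arrays), with an unadjusted p of 0.00444 and a limma adjusted p of 0.115. Klf10 differed by 0.68. Klf13, the lower gene at an unadjusted p under 0.05, differed by -0.62 with a limma adjusted p of 0.112.

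Among 45 other epidermal regulators and cofactors 1 rose and 0 fell, beside 0.511% of all genes that rose and 0.731% that fell. Cebpb, which helps to stop keratinocyte division as differentiation begins, read 11.65 ± 0.13 (SD, n = 4) in knockout and 11.00 ± 0.22 (SD, n = 5) in wildtype. It was 1.57-fold higher at a limma adjusted p of 0.0458. It lost that call in 12 of 19 alternative settings, among them 8 of the 9 with 1 array left out, where its difference was still positive. The count without wildtype array 5 was 2 higher and 1 lower. Trp63, the master regulator of the basal layer, read 6.12 ± 0.59 (SD, n = 4) against 7.54 ± 0.64 (SD, n = 5) at a limma adjusted p of 0.0809. The median of the 45 was -0.11, and it was -0.0172 without wildtype array 5 and -0.0149 without knockout array 4. Basal keratinocyte markers, a list that also holds Trp63, had means of 5.73 to 6.04 in knockout and 6.06 to 6.75 in wildtype, which did not overlap. Of these markers 0 of 13 passed in limma. At an unadjusted p under 0.05, 6 were lower, beside 10.7% of all genes, and 1 higher, beside 7.08%. The part of basal cells in the member values was not tested.

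The proteins, enzymes and junction genes that granular cells make differed in both directions, with 27 of 51 measured higher and a median of 0.02. In limma 0 passed. Of the 51 genes 49 had a mean of at least 5, a level at which 1787 of 7184 genes fitted alone had an unadjusted p under 0.05. At that p, 13 of the 51 were higher, beside 7.08% of all genes, and 7 lower, beside 10.7%. Past the threshold 2 were higher and 1 lower without wildtype array 5, when the median was -0.00932. It was -0.000185 without knockout array 3 and 0.06 without knockout array 4. The groups did not overlap for 8 of the 51 genes, all of them higher in knockout, beside 3.14% of all genes on the higher side. Rptn, a filaggrin-like envelope protein gene, was among them and read 10.85, 10.68, 10.38 and 10.90 in knockout and 8.48 to 10.24 in wildtype. Its limma adjusted p was 0.0525. Krt77, a suprabasal keratin gene, read 6.99 to 7.67 in knockout and 7.56 to 9.16 in wildtype, with a limma adjusted p of 0.0879. Tgm1, for which Grhl3 is an activator in mice, read 9.68 ± 0.30 (SD, n = 4) against 9.18 ± 0.30 (SD, n = 5) at a limma adjusted p of 0.212. Of the desmogleins, the kind of gene that Grhl1 drives, Dsg1a read 10.60 ± 0.72 (SD, n = 4) against 11.19 ± 0.32 (SD, n = 5) at a limma adjusted p of 0.336, and Dsg1b read 7.93 ± 0.72 (SD, n = 4) against 7.96 ± 0.34 (SD, n = 5), at one of 0.972.

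**Figure D3:**
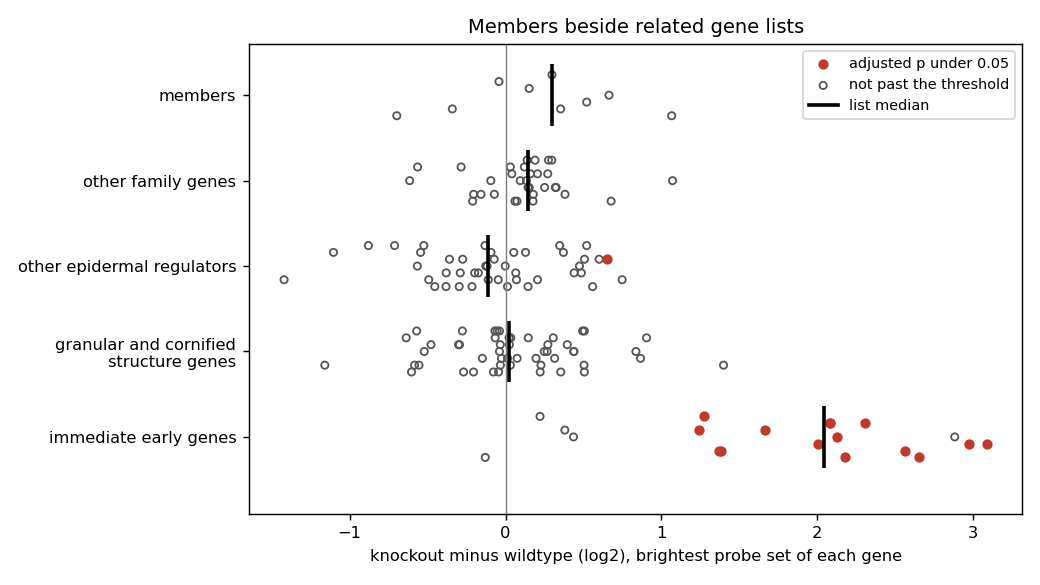
Knockout minus wildtype difference on the log2 scale (x axis) of the brightest probe set of each gene, for the 9 members, 32 other genes of their families, 45 other epidermal regulators, 51 granular and cornified structure genes and 20 immediate early genes (y axis). Filled points passed an adjusted p of 0.05 in limma and lines are list medians, which were 0.30, 0.14, -0.11, 0.02 and 2.04.

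The genes most like each member were taken by Pearson's r over 9 arrays among the genes with a mean of at least 5, of which 7042 were left once genes with provisional symbols were taken out. The 3 nearest genes of each member had an r of 0.94 to 0.98, 0 of these 27 passed in limma, and without wildtype array 5 their r fell to as low as 0.78. For Prdm1 they were Kmt5b, Rhou and Ing5, for Hopx Atg101, Sgsm3 and Pnpla1, and for Klf4 Serpinb2, Borcs6 and Mtdh. Pnpla1 makes epidermal acylceramides, in the same pathway as Alox12b, and its r with Hopx was 0.94, and 0.91 without wildtype array 5. Those of Grhl1 were Parl, Mrps14 and Papola, those of Grhl3 Tmprss11e, Pttg1ip and Ehd1, and those of Klf5 Tnpo3, Kdm1a and Brms1l. Ovol1 lay nearest to Tnfaip1, Atg2a and Prxl2b, Gata3 to Scel, Gzf1 and Tnfaip8, and Zfp750 to Atp7a, Lzic and Spryd3. They were chosen as the highest among all those genes, so they describe the 9 arrays.

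Over 19 other settings the difference of Prdm1 ran from 0.79 to 1.24 and that of Hopx from 0.44 to 1.12, that of Zfp750 from 0.24 to 0.52, and that of Grhl3 from 0.17 to 0.76. Grhl1 ran from -0.42 to -0.15 and Gata3 from -0.86 to -0.31. In these gene fits, mostly by the brightest probe set, those 6 genes kept their sign in all 19, while Klf4, Klf5 and Ovol1 did not. The dimmer probe sets of Klf4 and Klf5 kept theirs in all settings of the probe set fit, while 1419052_at of Ovol1 did not. There 1417395_at of Klf4 ran from 0.40 to 0.64 and 1451739_at of Klf5 from -0.96 to -0.54. The settings are not independent checks. Trend and robust eBayes and the level filter cannot change a difference, and the replicate block repeats the difference without wildtype array 5. Array weights gave the only calls, with Prdm1 at a limma adjusted p of 0.00592 and Zfp750 at 0.0354, against 0.132 and 0.283 in the unweighted gene fit. With weights 1644 genes passed in all, 712 of them higher and 932 lower, against 226. Knockout array 3, knockout array 4 and wildtype array 5 then had weights of 0.32, 0.31 and 0.36, where the other arrays had 1.06 to 3.37.

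**Figure D4:**
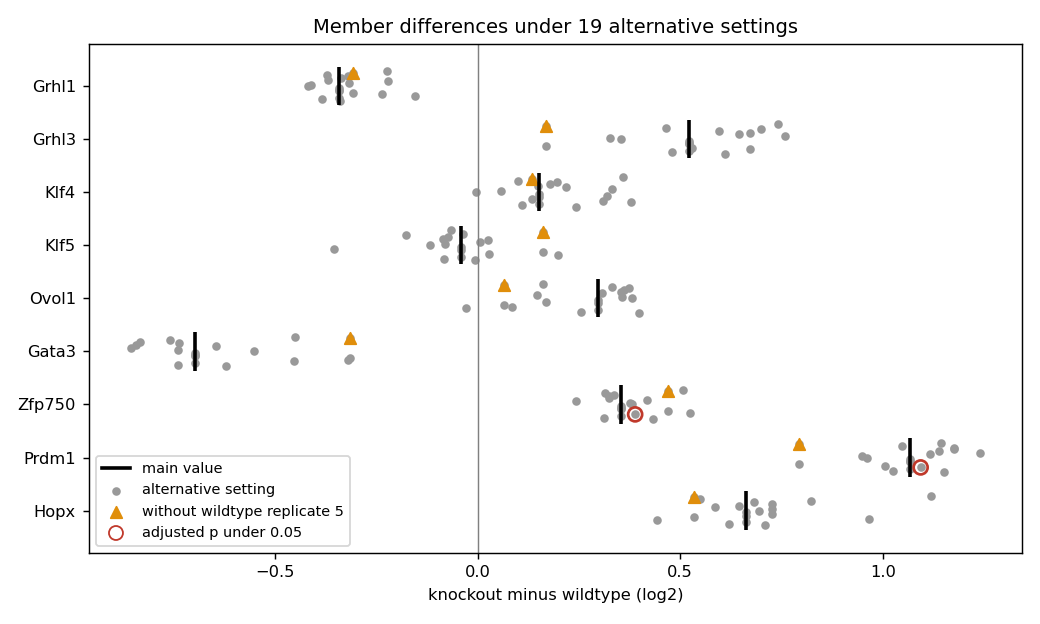
Knockout minus wildtype difference on the log2 scale (x axis) of each member gene (y axis) in the unweighted fit (black bar) and under 19 alternative settings (points), with the fit without wildtype array 5 as a triangle and adjusted p values under 0.05 ringed. The rings, both from the fit with array weights, are at 1.09 for Prdm1 and 0.39 for Zfp750.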

How the data were processed

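Trunk epidermis of newborn mice was lifted off after a short hot saline bath, and its cRNA, primed at the 3′ end, was measured on Mouse Genome U430 2.0 arrays from Affymetrix, per the labels' protocols. The authors deposited 1 table of log2 values for 45037 probe sets and 9 arrays. Per the submitters' processing notes, affy was used. The sources used here do not give the normalization, background correction or probe summary. Array medians ran from 3.14 to 3.31, and values were used as deposited. Arrays carry no depth, and their number limits the precision.

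Gene names came from the platform annotation, with symbols updated by gene number through the GRCm38.p6 gene table. Of all probe sets, 34945 named 1 gene, 932 named several and 9160 were not listed in it. Groups came from the sample titles. limma 3.58.1 in R 4.3.3 (lmFit, eBayes, genotype as the only term) was fitted to all probe sets, which gives the member values, and to 18193 genes by their brightest probe set, which gives the list counts and settings. Benjamini-Hochberg adjustment ran over each whole table. Intervals are 95%. p-values measure the spread between these samples. The code was tested on simulated data.

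The members and lists were chosen with earlier results of these data known. Named genes were all members, list genes past the threshold, the 2 widest differences of a list with none, and the 3 nearest genes by r. Trp63, Klf13, Tgm1, Dsg1a, Dsg1b, Scd1, Pparg, Plin5, Mc5r, Elovl3, Krt1, Lor, Xist and Alox12b were added after their values were seen. Promoter sequences come from RefSeq GRCm38.p6, which matched 6 of the 9 members by symbol. Alternatives were quantile normalization, median centring, trend and robust eBayes, array weights, a covariate for Xist, the replicate block, a level filter at 5, other summaries of probe sets and each array left out.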

Additional observations from a re-analysis of the deposited data

Results flagged for a closer look

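Wildtype array 5 lay far from the other wildtype arrays for Ovol1, Gata3 and Zfp750. It read 7.15 and 4.89 for the Ovol1 probe sets 1419051_at and 1419052_at, where the others read 8.21 to 8.38 and 5.91 to 6.18. It read 9.68 for Gata3, against 7.57 to 7.99, and 8.78 for Zfp750, against 8.16 to 8.25. Among 28 groups of member values those 4 had such a sample, where chance gives about 1 in 20. The same array had list means of 7.21 for other epidermal regulators, against 6.88 to 6.92, 4.60 for bulge and germ markers, against 4.94 to 5.03, and 3.39 for melanocyte markers, against 4.42 to 4.64. Knockout array 4 had list means of 5.46 for smooth muscle markers, against 3.39 to 3.54 on the other knockout arrays, and 5.24 for bulge and germ markers, against 4.76 to 4.81.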

How the results depend on the processing

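Against 226 genes and 498 probe sets past the threshold, array weights gave 1644 and 2511, and the Xist level as a covariate 9 and 18. With the knockout arrays and wildtype array 4 alone, a setting added after the data were seen, 0 genes and 1 probe set passed in limma, with 1040 genes at an unadjusted p under 0.05. Leaving out 1 array gave 62 to 281 genes and 142 to 626 probe sets, and 0 member genes and 0 member probe sets in each case. Quantile normalization moved the split of probe sets from 153 higher and 345 lower to 276 and 393. The replicate block gave 119 genes and 0 members in limma, with 3 member genes at an unadjusted p under 0.05. It takes wildtype array 5 out of the comparison, since number 5 exists only in wildtype. Samples of the same number deviated together only in pair 4 (r of 0.22, against -0.18, -0.08 and -0.27 in pairs 1 to 3). So few values cannot decide whether the numbers pair the samples, and the main fit used no pairing. With array weights 2 member genes and 2 member probe sets passed, Prdm1 in both and Zfp750 or 1417395_at of Klf4 as the other. Klf5 turned sign, to 0.20 and 0.18 with array weights in the gene and probe set fits, 0.029 with the Xist covariate and 0.16 with the replicate block, and it ran from -0.18 to 0.16 with 1 array left out. Ovol1 turned to -0.0286 with array weights in the gene fit. Its dim probe set 1419052_at turned to -0.00351 with median centring, -0.19 with array weights, -0.34 with the Xist covariate, -0.19 with the replicate block and -0.28 with the added setting, and ran from -0.19 to 0.17 with 1 array left out. Klf4 (1417394_at) ran from -0.00296 to 0.33 with 1 array left out. The cause was not tested for any of these. In all, 22 of 408 recomputed member values turned sign and 4 newly passed. Of the immediate early genes 0 passed in limma with the added setting, 16 having an unadjusted p under 0.05, and their median was 2.07.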
